A study of Mus musculus with 4 samples.

Results

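The genes described here are Aire, the receptor gene Tnfrsf11a (RANK), its ligand gene Tnfsf11 (RANKL), and the transcription factor genes Spib, Fezf2, Trp63 and Foxn1. They are 7 of the 24015 gene symbols counted in RNA-seq of mouse HSPC, the stem and progenitor cells of blood, after sorting, and all 7 symbols were found. They were selected by symbol, from genes known in thymic epithelium, with the caNIK against control values of these libraries already known. Their values in that contrast are therefore a description and carry no p-value. The series compared 2 control libraries with 2 libraries from caNIK mice. The caNIK mice were a cross of Rosa-loxp-STOP-loxp-NIK animals with Vav-iCre animals. Their NIK is a mutant that TRAF3 cannot target, and Cre of the Vav-iCre line, which is active in the hematopoietic system, switches it on there. The labels call the other genotype control, without naming its alleles. The labels give no sort markers, tissue, age of the mice or number of animals behind each library. P-values on other genes below thus measure only the spread between these libraries, which may be technical.

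In the thymic medulla, RANKL on lymphoid cells binds RANK on epithelial cells, and RANK signals through TRAF adaptors, NIK and the RelB and p52 subunits of NF-kB. AIRE is a nuclear protein that lets medullary epithelial cells transcribe genes otherwise restricted to other tissues, so that self-reactive T cells meet those antigens. FEZF2 serves a like role, FOXN1 is needed to form a functional thymic epithelium, p63 maintains stratified and thymic epithelium, and SPIB is an ETS factor of B cells, plasmacytoid dendritic cells and medullary epithelium.

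Aire, Tnfrsf11a, Spib and Trp63 had far more reads in both caNIK libraries than in either control library. Tnfsf11 had fewer reads in both caNIK libraries. Foxn1 had reads in a single caNIK library, and Fezf2 had none in any library. Library totals lay between 18574452 and 23162766 counts. Levels are CPM, which divides each count by its library's total, with the library scaling factors of edgeR's TMM method, and log2 fold changes are caNIK against control with the standard error (SE) of the edgeR fit. The filter on low counts kept 14191 genes, of which 161 had no read in either control library. A gene with few or no control reads could pass it only through its caNIK reads. For such a gene a rise was largely fixed by the filter. Kept were 5 of the 7, Trp63 through its caNIK reads only, with Fezf2 and Foxn1 left out. Of these 5, 4 had both caNIK libraries above both control libraries, and 1 had both below. Over all genes kept, 33.3% lay above and 31.6% below in the same sense, so nothing is read from that count. In these bulk libraries, more or fewer cells with a transcript cannot be told apart from more or less of it per cell.

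**Figure D1:**
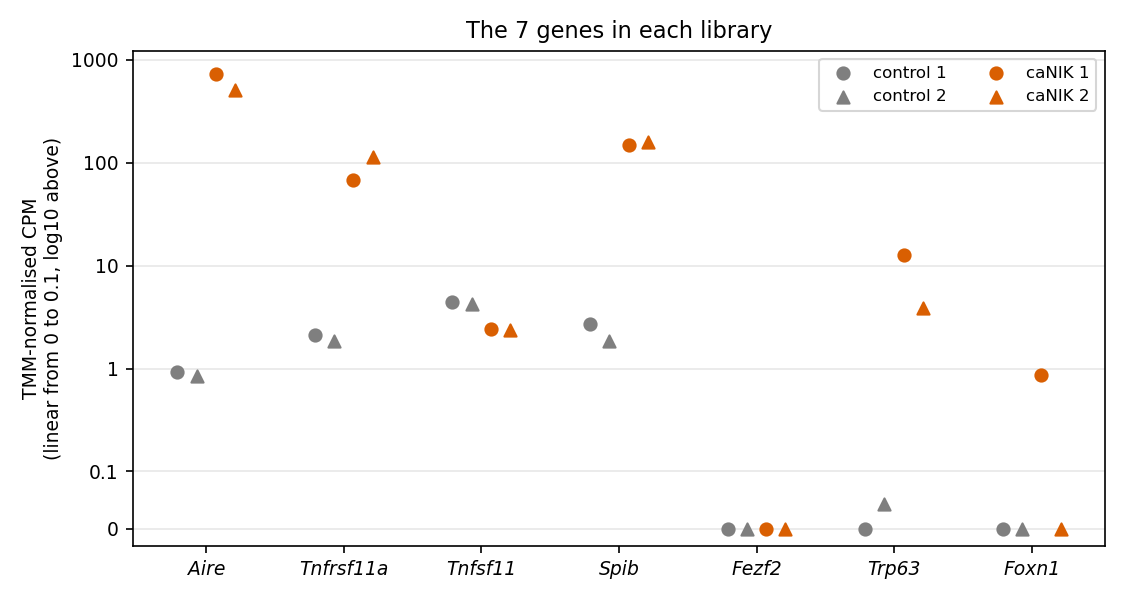
TMM-normalised CPM of the 7 genes (x axis) in each of the 4 libraries, on a y axis that is linear from 0 to 0.1 CPM and log10 above. Circles are replicate 1, triangles replicate 2, grey is control and orange is caNIK. Aire sits near 1 CPM in both control libraries and at 738 and 512 CPM in the caNIK libraries, and Fezf2 is at 0 in all 4.

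Tnfrsf11a encodes RANK, the receptor through which osteoclast precursors and medullary epithelium receive RANKL. It was counted 41 and 44 times in control replicates 1 and 2, and 1273 and 2334 times in caNIK replicates 1 and 2. These counts correspond to 2.13 and 1.87 CPM in control and to 68.4 and 113 CPM in caNIK. The control pair was close, whereas caNIK replicate 2 lay 1.65-fold above caNIK replicate 1, and the groups did not overlap. The control mean was 2 ± 0.178 CPM and the caNIK mean 90.4 ± 31.2 CPM (SD, n = 2 each), with a log2 fold change of 5.50 ± 0.32 (SE).

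Tnfsf11, the gene of the ligand RANKL, was counted 85 and 100 times in control and 45 and 49 times in caNIK. Its level was 4.41 and 4.26 CPM in the control libraries and 2.42 and 2.36 CPM in the caNIK libraries. Replicates of each genotype agreed closely and the groups did not overlap. The log2 fold change was -0.86 ± 0.45 (SE), small beside those of the receptor and of Aire. The ratio of the summed counts, caNIK over control, was 0.552 with an exact 95% interval of 0.426 to 0.711, which covers counting error only. In these libraries the receptor gene was thus higher and the ligand gene lower in caNIK. The SE of the ligand gene's difference is large beside that difference, so the fit does not establish a fall of Tnfsf11.

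The decoy receptor osteoprotegerin, which binds RANKL and keeps it from RANK, is encoded by Tnfrsf11b. It had 0 and 3 reads in control and 63 and 22 reads in caNIK, a ratio of 30.8 with an exact counting interval of 10.2 to 152. It rose in edgeR's quasi-likelihood test (adjusted p = 0.031), a call that was lost without caNIK replicate 1 (adjusted p = 0.17).

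Of 25 RANK signalling components tested, 10 rose, 2 fell and 13 did not pass. Among all 14191 genes tested, 22.0% passed in either direction, 13.8% as higher and 8.21% as lower. The list's median was 0.47 on the log2 scale, against 0.00 over all genes tested. The list was written with earlier results of these data known and holds Map3k14, the gene of the activated kinase. Map3k14, the gene that encodes NIK, rose by 2.74 ± 0.17 on the log2 scale (edgeR adjusted p = 0.00023), and reads of the inserted copy are not separated from those of the native gene. The NF-kB subunit genes Nfkb2 and Relb rose by 5.05 ± 0.22 and 4.53 ± 0.21 (edgeR adjusted p = 8.2e-05 and 9.5e-05), whereas Rela (0.15 ± 0.15) and Nfkb1 (0.30 ± 0.19) did not pass. Src, a tyrosine kinase recruited to RANK, rose from 12.8 ± 0.646 to 103 ± 6.77 CPM. Traf1, Traf2 and Traf3 rose, by 3.81 ± 0.59, 1.02 ± 0.15 and 1.08 ± 0.15. Traf6, the adaptor that couples RANK to canonical NF-kB signalling, had a log2 fold change of 0.50 ± 0.18 (edgeR adjusted p = 0.093). The members that fell were Mapk14, a p38 kinase gene (-0.63 ± 0.14), and Nfatc1 (-0.97 ± 0.20). The Mapk14 call was lost without control replicate 1 (adjusted p = 0.072) or control replicate 2 (adjusted p = 0.19), and without the latter only 1 member fell.

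Nfatc1 is the master transcription factor that RANKL induces during osteoclast formation, and it fell from 96.2 ± 0.104 to 49.2 ± 12.6 CPM (edgeR adjusted p = 0.018). Of 10 genes that RANK turns on in osteoclasts, 7 were tested, of which 3 rose and 1, Nfatc1, fell, beside the 13.8% and 8.21% over all genes tested. The tartrate-resistant phosphatase gene Acp5 rose by 2.43 ± 0.28 and the integrin gene Itgb3, also a platelet gene, by 3.59 ± 0.36 (edgeR adjusted p = 0.0018 and 0.0011). Ocstamp, a gene of osteoclast fusion, had 0 and 0 reads in control and 13 and 22 in caNIK, and was at least 12.7-fold higher. Ocstamp was kept by the filter only through its caNIK reads. It lost its call without control replicate 2 (adjusted p = 0.051) or caNIK replicate 1 (adjusted p = 0.083), and did not pass the filter without caNIK replicate 2. The fusion gene Dcstamp had 11 and 13 reads in control and 0 and 1 in caNIK (edgeR adjusted p = 0.061), and the calcitonin receptor gene Calcr had 1 read in all. Ctsk, the collagen-degrading protease of osteoclasts, had 6 and 26 reads in control and 7 and 102 in caNIK (edgeR adjusted p = 0.31).

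Aire had a log2 fold change of 9.45 ± 0.31 (SE). It was counted 18 and 20 times in control replicates 1 and 2 and 13742 and 10623 times in caNIK replicates 1 and 2. On the CPM scale this was 0.934 and 0.852 against 738 and 512. Both control libraries lay near 1 CPM, and caNIK replicate 1 lay 1.44-fold above replicate 2, the reverse of the order seen for Tnfrsf11a. The control mean was 0.893 ± 0.0576 CPM, the caNIK mean 625 ± 160 CPM (SD, n = 2 each). The ratio of summed counts was 696, with an exact 95% counting interval of 507 to 984. In the order of log2 fold changes over all 14191 genes tested, Aire stood at place 68 from the highest, Trp63 at 137, Spib at 294 and Tnfrsf11a at 349. Tnfsf11 stood at place 1615 from the lowest.

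Spib was counted 52 and 44 times in control and 2756 and 3306 times in caNIK. Its level was 2.7 and 1.87 CPM in the control libraries and 148 and 159 CPM in the caNIK libraries. The caNIK pair agreed more closely for Spib than for Aire or Tnfrsf11a, with a ratio of replicate 2 over replicate 1 of 1.08. The means were 2.29 ± 0.582 and 154 ± 8.05 CPM (SD, n = 2), with a log2 fold change of 6.08 ± 0.24 (SE).

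Trp63, the gene of p63, had 0 and 1 reads in control and 234 and 81 reads in caNIK. In CPM, control lay at 0 and 0.0426 and caNIK at 12.6 and 3.9. The groups did not overlap, but caNIK replicate 1 was 3.22-fold above replicate 2 and held 74.3% of the caNIK reads. The ratio of summed counts was 342 with an exact 95% counting interval of 61 to 13555. The fitted log2 fold change of 8.13 ± 1.1 (SE) depends on the prior count of the fit, since control held a single read. Without control replicate 2, which held it, Trp63 was at 10.33 and Aire at 9.38, so the order of these genes by fold change turned. Gene-level counts do not separate the p63 isoforms that carry the full transactivation domain from those that lack it.

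Foxn1 had no read in either control library or in caNIK replicate 2, and 16 reads (0.859 CPM) in caNIK replicate 1. Against a floor of 3 counts over the control group this was at least 5.79-fold higher over the caNIK group, on the strength of 1 library. Fezf2 had no read in any of the 4 libraries, which allows up to 3 counts each, or 0.128 to 0.161 CPM. The number of libraries with reads thus separated Trp63, found in both caNIK libraries, from Foxn1 and Fezf2.

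To set the genes beside each other, CPM was divided by the exon length of the GENCODE M21 annotation of GRCm38, which is not the authors' annotation. In control, the mean per-length level in CPM per kilobase was 1.94 for Tnfsf11, 0.82 for Spib, 0.461 for Aire, 0.398 for Tnfrsf11a and 0.00254 for Trp63. In caNIK the order was Aire at 323, Spib at 55.1, Tnfrsf11a at 18, Tnfsf11 at 1.07 and Trp63 at 0.981 CPM per kilobase. The last pair overlapped between libraries, with 1.08 and 1.06 for Tnfsf11 and 1.5 and 0.465 for Trp63. Aire was thus placed below Tnfsf11 and Spib in control and above all the others in caNIK. Among the 13538 tested genes with an exon length, Aire ranked 11540 and 11502 in the control libraries and 113 and 181 in the caNIK libraries by this per-length level.

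The starts of Aire, Tnfrsf11a and Spib are shown because their transcripts were higher together in the libraries with active NIK. RefSeq promoter windows of GRCm38.p6 matched 6 of the 7 genes by symbol (not Trp63). Each sequence below is the 250 bases before the RefSeq start, read 5′ to 3′ on the gene's strand. Capitals mark TATAAA in Aire and a loose NF-kB-like pattern, GGG then any 5 bases then CC, on either strand, in the other genes.
Aire, chr10:78043611-78043860, minus strand: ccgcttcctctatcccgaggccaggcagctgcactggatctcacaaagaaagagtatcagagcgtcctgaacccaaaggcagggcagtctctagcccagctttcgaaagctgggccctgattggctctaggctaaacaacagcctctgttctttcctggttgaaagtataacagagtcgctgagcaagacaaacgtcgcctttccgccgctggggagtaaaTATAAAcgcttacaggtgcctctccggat
Tnfrsf11a, chr1:105780473-105780722, plus strand: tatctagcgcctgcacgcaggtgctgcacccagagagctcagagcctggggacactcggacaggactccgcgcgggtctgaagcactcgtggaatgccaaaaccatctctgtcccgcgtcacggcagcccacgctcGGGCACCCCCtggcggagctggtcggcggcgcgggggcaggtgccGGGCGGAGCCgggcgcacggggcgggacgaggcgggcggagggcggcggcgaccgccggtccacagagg
Spib, chr7:44532072-44532321, minus strand: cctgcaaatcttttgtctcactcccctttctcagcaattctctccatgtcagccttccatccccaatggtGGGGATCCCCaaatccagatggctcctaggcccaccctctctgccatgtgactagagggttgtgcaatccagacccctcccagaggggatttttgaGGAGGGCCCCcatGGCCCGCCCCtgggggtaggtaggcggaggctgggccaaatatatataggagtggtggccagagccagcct

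This loose pattern was searched on both strands with overlaps counted, and it occurred 2 times in the Tnfrsf11a window, 3 times in the Spib window and not in the Aire window. Of 32851 RefSeq windows of the same length, 45.8% held it. The Tnfsf11 window also held 2 matches, and those of Fezf2 and Foxn1 4 each. The tighter pattern GGGA, any base, TTTCC was in none of the 6 windows and in 0.356% of all windows. TATAAA, also on either strand, lay in the Aire and Tnfsf11 windows and in 12.4% of all windows. A match is a string of letters and not a bound site, and the windows leave out distant enhancers.

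Other receptors of the medulla that raise Aire there are CD40 and the lymphotoxin beta receptor. A list of 7 receptor and ligand genes that act on Aire in the medulla, besides RANK and RANKL, had 6 tested genes. It includes the decoy receptor gene Tnfrsf11b, which is also counted among the RANK signalling components. Of the 6, 4 rose and 1 fell, against 13.8% and 8.21% over all genes tested. Cd40 and Tnfrsf11b were kept by the filter only through their caNIK reads. Cd40 had no read in control and 324 and 229 reads in caNIK (17.4 and 11 CPM), at least 200-fold higher (edgeR adjusted p = 0.00091). Ltb, a lymphotoxin chain, rose from 41.5 ± 11 to 457 ± 177 CPM (log2 fold change 3.46 ± 0.33, edgeR adjusted p = 0.00092). Lta, the other chain, rose by 2.78 ± 0.65 (edgeR adjusted p = 0.026), and the remaining rise was Tnfrsf11b. The receptor gene Ltbr fell from 39.4 ± 3.05 to 13.5 ± 0.336 CPM (-1.55 ± 0.20, edgeR adjusted p = 0.003). Without caNIK replicate 1, the calls of Lta (adjusted p = 0.15) and Tnfrsf11b were lost, leaving 2 that rose and 2 that fell.

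Of 20 tested genes of proteins reported to bind or assist AIRE, 2 rose and 18 did not pass. The share that rose is near the 13.8% over all genes tested, and the list's median was 0.09 on the log2 scale. Hipk2, a kinase that phosphorylates AIRE, rose by 1.02 ± 0.21 and the deacetylase gene Sirt1 by 0.78 ± 0.16 (edgeR adjusted p = 0.016 and 0.015). The Hipk2 call was lost without control replicate 1 (adjusted p = 0.056) or caNIK replicate 2 (adjusted p = 0.055), and that of Sirt1 without control replicate 2 (adjusted p = 0.11). The elongation kinase gene Cdk9 (-0.47 ± 0.15) and the topoisomerase genes Top1 (-0.01 ± 0.14) and Top2a (0.23 ± 0.17) were counted in all libraries and did not pass. Without caNIK replicate 1, Cdk9 (adjusted p = 0.041) and Top2a (adjusted p = 0.032) passed. In edgeR's test 0 members fell, against 3 at an unadjusted p under 0.05 and 0 in DESeq2. Without caNIK replicate 1, 3 rose and 2 fell, and without caNIK replicate 2, 1 rose and 1 fell. Without either control library 1 rose.

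**Figure D2:**
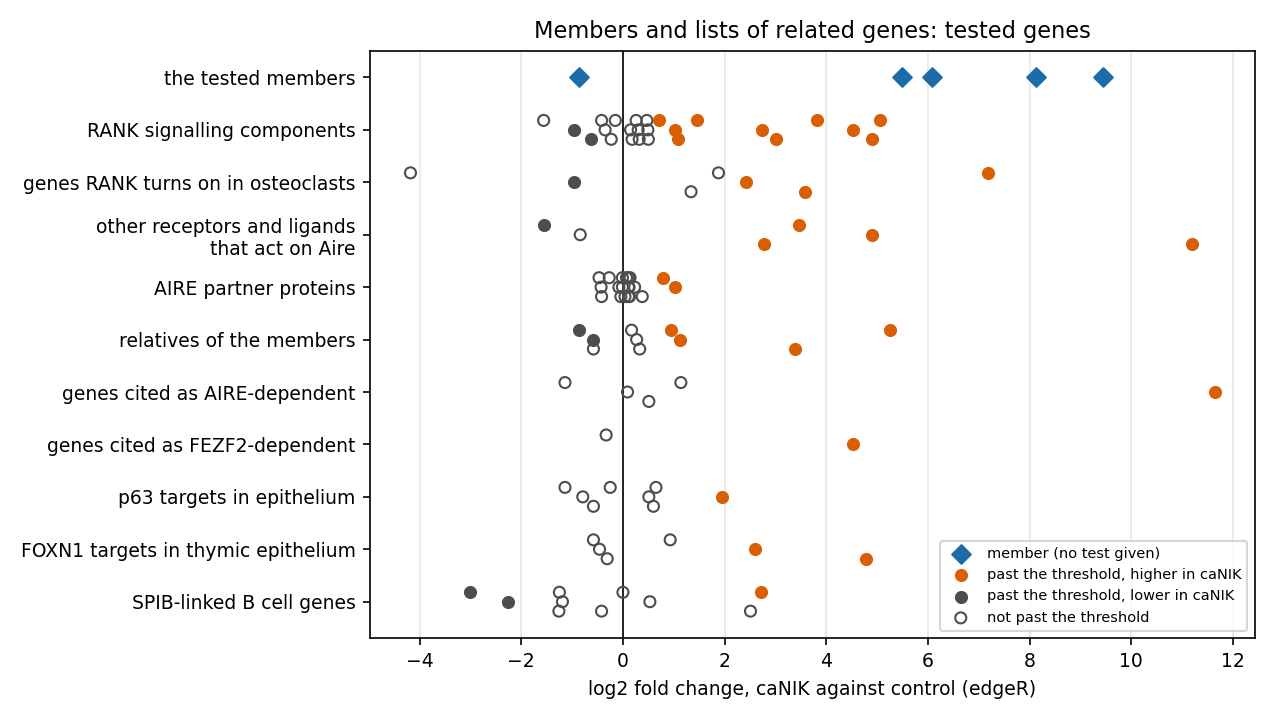
Log2 fold changes, caNIK against control, of the 5 members that passed the filter (blue diamonds) and of the tested genes of 10 lists of related genes (rows). Orange marks genes past the adjusted p threshold and higher in caNIK, dark grey those lower, and open circles those not past it. AIRE partner genes lie close to 0, between -0.47 (Cdk9) and 1.02 (Hipk2), while Aire is at 9.45.

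Of 13 genes cited as AIRE-dependent in medullary epithelium, 7 had no read in any of the 4 libraries, as had 24.9% of all 24015 symbols. These were Ins2 (insulin), Rbp3 (a retinal antigen), Spt1, Sbp, Obp1a, Mup1 and Ambp. Of the 5 that were tested, 1 rose (13.8% over all genes tested), and the median log2 fold change was 0.51. That gene was the milk protein gene Csn2, beta-casein, with no read in control and 353 and 412 reads in caNIK (19 and 19.9 CPM), at least 277-fold higher (edgeR adjusted p = 0.00044). The filter kept Csn2 only through its caNIK reads, so nothing is read from the count of 1. Tff3 (-1.14 ± 0.80), Muc6 (0.51 ± 0.70), Chrna1 (1.14 ± 0.63) and Atp4a (0.09 ± 0.53) did not pass, and Atp4b had 1 read in all. Csn2 passed in each fit that left out 1 library, and without control replicate 2 the list held 2 genes that rose and 1 that fell. For the Mup1 family, reads shared between near-identical copies may not have been counted, and the sources used here do not say how reads matching several places were treated.

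**Figure D3:**
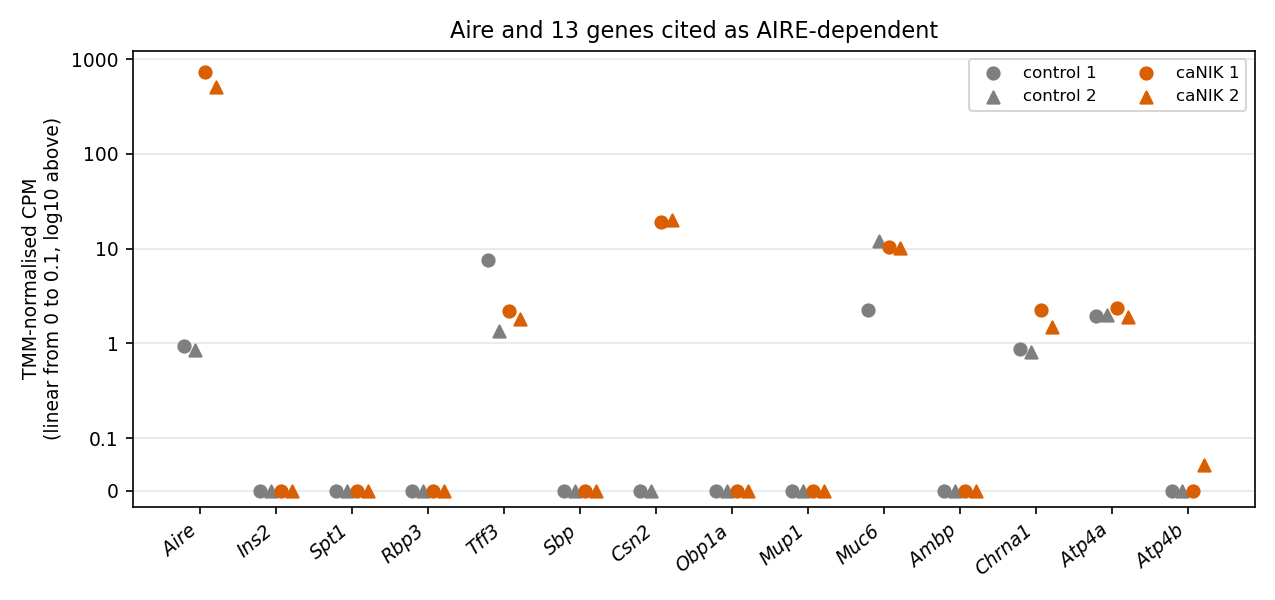
TMM-normalised CPM of Aire and of 13 genes cited as AIRE-dependent (x axis) in the 4 libraries, on a y axis that is linear from 0 to 0.1 CPM and log10 above; symbols as circles for replicate 1, triangles for replicate 2, grey for control and orange for caNIK. Csn2 is at 0 in both control libraries and at 19 and 19.9 CPM in caNIK, and 7 of the 13 are at 0 in all 4 libraries.

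Cited targets of the other regulators were few after the filter on low counts, and their counts are to be read against the 13.8% of all genes tested that rose and the 8.21% that fell. Of 6 genes cited as FEZF2-dependent, 3 (Fabp9, Ttr and Resp18) had no read and 2 were tested. Nol4, a nucleolar protein gene, rose by 4.53 ± 1.12 (edgeR adjusted p = 0.031) while Fezf2 itself had no read, and it lost the call without caNIK replicate 1 (adjusted p = 0.063) or replicate 2 (adjusted p = 0.11). Of 12 p63 targets of epithelium, 8 were tested and 1 rose, the cytoskeletal linker gene Dst, from 41.6 ± 0.688 to 159 ± 25.7 CPM (edgeR adjusted p = 0.00079). In edgeR 0 fell, with 1 at an unadjusted p under 0.05, and in DESeq2 1 fell, Sfn, a 14-3-3 protein gene (-1.14 ± 0.38 and adjusted p = 0.076 in edgeR, 0.037 in DESeq2). The basal keratin genes Krt5 and Krt14 and the desmocollin gene Dsc3 had no read in any library, including caNIK replicate 1, which had 234 reads of Trp63. Of 7 FOXN1 targets of thymic epithelium, 6 were tested and 2 rose. The Notch ligand gene Dll4 rose from 0.763 ± 0.126 to 21.2 ± 1.87 CPM (log2 fold change 4.78 ± 0.35, edgeR adjusted p = 0.00042), and Cd83, also a marker of activated dendritic and B cells, by 2.60 ± 0.47. The proteasome gene Psmb11 and the protease gene Prss16 of cortical epithelium did not pass (0.93 ± 0.61 and -0.31 ± 0.69). Without control replicate 1, 1 of the 6 fell, and without control replicate 2, 3 rose.

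Spib is also a B cell factor. Of 10 tested B cell genes linked to it, 1 rose, 2 fell and 7 did not pass, against 22.0% of all genes tested that passed in either direction, and the list's median was -0.80 on the log2 scale. Pou2af1, the B cell coactivator gene, rose by 2.71 ± 0.56 (edgeR adjusted p = 0.017), from 11.6 ± 7.04 to 75.9 ± 46.3 CPM. The B lineage factor genes Pax5 and Ebf1 fell, from 3.58 ± 1.39 to 0.445 ± 0.357 CPM and from 17.7 ± 8.28 to 3.7 ± 2.37 CPM (edgeR adjusted p = 0.036 and 0.031). Neither call held without caNIK replicate 2 (adjusted p = 0.1 and 0.065), nor that of Pax5 without control replicate 1 (adjusted p = 0.076). Between 0 (without caNIK replicate 2) and 4 (without control replicate 2 or caNIK replicate 1) members fell when 1 library was left out, 1 fell without control replicate 1, and 2 rose in that fit.

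Relatives of the 7 genes by protein family or fold differed among themselves. Of 12, 10 were tested, with 4 rises and 2 falls (13.8% and 8.21% over all genes tested) and a list median of 0.30 on the log2 scale. Sp100 and Sp140, which share the SAND domain with AIRE, rose by 1.12 ± 0.25 and 0.95 ± 0.24 (edgeR adjusted p = 0.021 and 0.035), whereas Deaf1, a further SAND gene, fell by 0.86 ± 0.16 on the log2 scale (edgeR adjusted p = 0.013). Within the ETS subfamily of Spib, Spic rose by 3.39 ± 0.39 (edgeR adjusted p = 0.0019) and Spi1, the PU.1 gene, fell by 0.59 ± 0.16 (edgeR adjusted p = 0.045). Within the p53 family, Trp73 had 0 and 3 reads in control and 65 and 46 in caNIK, a ratio of 40.2 with an exact counting interval of 13.4 to 198 (edgeR adjusted p = 0.015). Trp53 did not pass (0.33 ± 0.16). Calls were lost for Deaf1 without control replicate 2 (adjusted p = 0.058) and for Trp73 without caNIK replicate 1 (adjusted p = 0.064). For Spi1 the call was lost without any library but caNIK replicate 1 (adjusted p = 0.089 to 0.19), and for Sp140 without any library but caNIK replicate 2 (adjusted p = 0.072 to 0.1). Leaving out control replicate 1 or caNIK replicate 2 left 1 that fell, leaving out control replicate 2 left 0, and 3 fell without caNIK replicate 1.

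Markers of other cells that express these genes were summed in each library, and counts of markers past the threshold stand beside the same 13.8% higher and 8.21% lower over all genes tested. Thymic epithelial markers, 16 in all, summed to 169 and 78.6 CPM in control and to 65.4 and 40.6 CPM in caNIK. Their sum was thus lower in the libraries with high Aire, and the defining genes Krt5, Krt14 and Ccl21a were at 0 throughout. Control replicate 1 raised the control sum through Epcam and Krt8. Epcam was at 33.3 and 4.13 CPM in control and at 12.2 and 7.18 CPM in caNIK. Krt8 was at 38.7 and 8.69 CPM in control and at 13 and 11.5 CPM in caNIK. For both genes control replicate 2 lay below both caNIK libraries. Of 11 tested, Krt18 (-3.40 ± 0.34) and Eya1 (-2.02 ± 0.50) fell and 1 rose. Without control replicate 2, 5 fell. The 9 tuft and corneocyte-like markers found summed to 3.99 and 4.98 CPM in control and 15.3 and 11.9 CPM in caNIK. Of 4 tested, the taste channel gene Trpm5 and the tuft factor gene Pou2f3 rose. Both, and Avil, which did not pass the threshold, were kept by the filter only through their caNIK reads. Nothing is therefore read from that count. Trpm5 went from 5 and 3 reads to 132 and 133, and Pou2f3, at 0 in control, had 27 and 17 reads in caNIK and lost its call without either caNIK library (adjusted p = 0.11 and 0.077), leaving 1 that rose. Il25 was at 0.

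Markers of mature dendritic cells, in which Aire has been described outside the thymus, summed to 109 and 101 CPM in control and to 828 and 837 CPM in caNIK. Of 10 tested, 8 rose and 2 did not pass, against 13.8% that rose over all genes tested. Among the 8, Cd80, Batf3 and Ccl22 were kept by the filter only through their caNIK reads. The list's median was 2.63 on the log2 scale. In the fits without 1 library, 6 to 8 rose. The actin-bundling gene Fscn1, which made up most of the sum, rose by 3.57 ± 0.15 to 616 ± 25.4 CPM, and the co-stimulatory gene Cd80 from 0 and 7 reads to 632 and 1188 (edgeR adjusted p = 7.4e-05 and 0.00072). The defining receptor gene Ccr7 did not pass (1.55 ± 0.49, edgeR adjusted p = 0.066), but passed in DESeq2 (adjusted p = 0.012) and, in edgeR, without control replicate 1 (adjusted p = 0.0019) or with a filter of 1 read in any library (adjusted p = 0.011). Without the other libraries its adjusted p was 0.076 to 0.18, and the cytokine gene Il12b had no read. Whether these markers and Aire were in the same cells was not tested.

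Osteoclast markers, which include Acp5 and Ocstamp above, summed to 13.5 and 10.8 CPM in control and 49.2 and 72.4 CPM in caNIK, with 2 of 4 tested genes higher. Of these, 1 was left without any library but control replicate 1. B cell markers summed to 68.9 and 50.3 CPM in control and to 99.7 and 57.5 CPM in caNIK. Of 8 tested, Cd22 and Cr2 rose and Pax5 fell, with a list median of 1.44 on the log2 scale, while 4 rose and 0 fell without control replicate 1, 2 fell without control replicate 2, 1 rose and 3 fell without caNIK replicate 1, and 0 fell without caNIK replicate 2. Plasmacytoid dendritic cell markers summed to 401 and 411 CPM against 407 and 261 CPM. Of 9 tested, Bst2 rose and Runx2 fell, and Bst2 lost the call without any 1 library (adjusted p = 0.069 to 0.29). In those fits 2 rose without control replicate 1 or caNIK replicate 2, and 0 rose and 2 fell without caNIK replicate 1. Lymphoid tissue inducer markers, a source of RANKL in the thymus, summed to 36.9 and 19 CPM against 107 and 38.4 CPM. Of 4 tested, Ccr6 rose (2 rose without control replicate 1 or caNIK replicate 2), and Il22 and Il17a were at 0. T cell markers summed to 129 and 60.4 CPM against 209 and 82 CPM, with 0 of 8 past edgeR's threshold, 2 higher at an unadjusted p under 0.05, 2 higher in DESeq2, 3 without control replicate 1 and 2 without control replicate 2 or caNIK replicate 2. Stromal and osteoblast markers, cells that make RANKL in bone, summed to 13.9 and 138 CPM in the control libraries and to 188 and 131 CPM in the caNIK libraries. Of 6 tested, 0 passed in edgeR, at an unadjusted p under 0.05 or in DESeq2, while 3 rose without control replicate 2 and 1 fell without control replicate 1. The part of such cells in the Tnfsf11 counts was not tested.

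Against the labelled cell type, 15 markers of stem and progenitor cells summed to 3175 and 3011 CPM in control and to 2386 and 1944 CPM in caNIK, and all were detected. The receptor tyrosine kinase gene Kit was at 612 ± 1.81 and 532 ± 36.7 CPM (edgeR adjusted p = 0.35). Lmo2, a transcriptional cofactor gene of blood stem cells, fell by 1.32 ± 0.14 on the log2 scale. In all, 5 fell and 2 rose (Gata2 and Ly6a), and 8 fell without caNIK replicate 1.

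**Figure D4:**
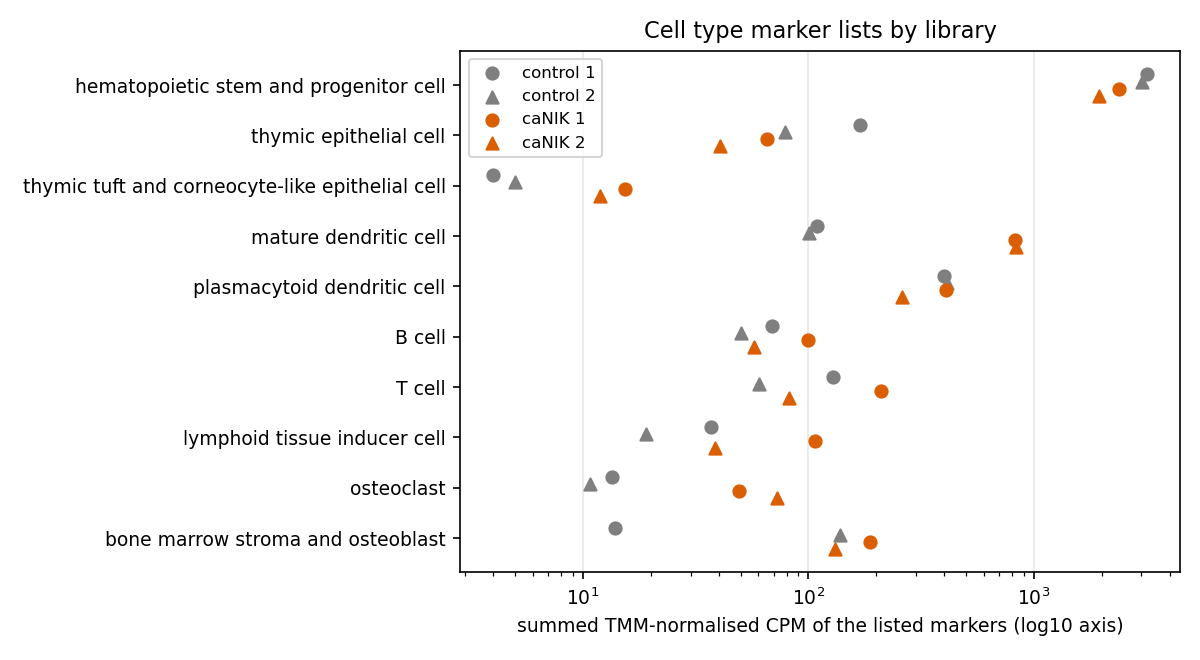
Summed TMM-normalised CPM of each marker list (rows) in the 4 libraries, on a log10 x axis, with circles for replicate 1, triangles for replicate 2, grey for control and orange for caNIK. Mature dendritic cell markers are at 828 and 837 CPM in caNIK against 109 and 101 in control, the sum of thymic epithelial markers is lower in caNIK, and stem and progenitor markers exceed 1900 CPM in every library.

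For each of the 5 members kept by the filter, the 3 genes with the most similar pattern over the 4 libraries were found. Likeness is the root mean square (RMS) difference of log2 CPM, each gene centred on its own mean, among 13267 other genes. It follows the genotype difference first, and with 4 libraries it is a description. For a gene with no control read, the control level in log2 CPM is set by the prior count of 2. Likeness to such a gene therefore does not mean a like fold change. Nearest to Aire were Sspo, the gene of the secreted protein SCO-spondin (RMS difference 0.32), the protease gene Pappa2 (0.33) and Apol11b (0.364). Pappa2 and Apol11b had no control read, and their fitted log2 fold changes were 13.80 and 12.77, against 9.45 for Aire. Sspo was counted 12 and 21 times in control and 16778 and 12519 times in caNIK, with caNIK replicate 1 the higher, as for Aire. In CPM the control order differed, with 0.622 and 0.895 for Sspo and 0.934 and 0.852 for Aire. Nearest to Tnfrsf11a were Ntn5 (0.075), Pdilt (0.0779) and the tropomodulin gene Tmod1 (0.122). Ntn5 and Pdilt also had no control read, with fitted log2 fold changes of 9.46 and 9.36, against 5.50 for Tnfrsf11a. Tmod1 was at 1.24 and 0.98 CPM in control and 47.1 and 71.2 CPM in caNIK, with replicate 2 the higher, as for Tnfrsf11a. Nearest to Spib were the rhomboid gene Rhbdl2 (0.079), the deiodinase gene Dio1 (0.144) and Gdpd5 (0.148). Nearest to Trp63 were Psd2 (0.165) and the mast cell genes Tpsg1 (0.208), a tryptase, and Fcer1a (0.234), a chain of the IgE receptor. Tpsg1 had no control read and 214 and 61 reads in caNIK, and Fcer1a had 0 and 2 against 195 and 77, each with caNIK replicate 1 the higher. Nearest to Tnfsf11 were the necroptosis gene Mlkl (0.0226), Arl5a (0.0238) and Wrb (0.0272), which were at ratios of 0.565, 0.576 and 0.574, caNIK over control.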

How the data were processed

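The authors deposited for each library its raw counts of reads by gene symbol, as whole numbers, per the file headers. Build mm9 and the tools TopHat2 2.1.0, featureCounts 1.5.0, DESeq2 1.10.1 and FastQC stand in the submitters' processing notes, without role or order. Annotation, strand setting and treatment of multiply matching reads were not given in the sources used here. No exon of another gene overlaps those of the 7 members in GENCODE M21.

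Groups and replicate numbers came from the sample titles. The fit used edgeR 4.0.16 under R 4.3.3 (filterByExpr, TMM, glmQLFit and glmQLFTest, group as the only term), and the threshold was 0.05 on p adjusted by Benjamini and Hochberg over all 14191 tested genes. The SE is the log2 fold change divided by the root of the F statistic. Log2 CPM used a prior count of 2. Count ratios have exact 95% intervals, and a group at 0 was set to 3 counts. Counts within the control pair and within the caNIK pair varied beyond sampling noise (chi-square over degrees of freedom of 23.5 and 42.4). The fit was tested on simulated data first, in 5 simulations with 200 changed genes each. It recovered 5.37% of 1.5-fold, 39.1% of 2-fold and 81.2% of 4-fold changes, and 4.79% of its calls were false. A gene that did not pass may therefore still differ between the groups.

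The members and all lists were chosen with earlier results of these data known. The text names all 7 members, up to 3 of the genes past the threshold with the smallest p per list, up to 2 per marker list, Map3k14, Nfkb2, Relb and the 3 nearest patterns per member. Other names were chosen after their values were seen. Some items that the rule would name are not reported here. Symbols of the lists were matched to the files also through RefSeq synonyms, and 1 marker (Flg) was not matched. Alternatives were DESeq2 1.42.0, other scalings and filters, a replicate block and each library left out.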

Additional observations from a re-analysis of the deposited data

How the results depend on the processing

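Log2 fold changes of the 5 tested members were recomputed 50 times in all, under 10 alternatives, and kept their sign each time. With library totals in place of TMM, Tnfsf11 was at -0.92. Over the fits that left out 1 library, log2 fold changes ran from 9.16 to 9.67 for Aire, 5.07 to 5.82 for Tnfrsf11a, 5.83 to 6.33 for Spib, -0.88 to -0.85 for Tnfsf11 and 7.08 to 10.33 for Trp63. The upper end for Trp63 came without control replicate 2, which held its only control read. Where a group had 1 library, it was assumed to vary like the other group. With the replicate number as a block (replicate block), 2494 genes rose and 1766 fell, against 1964 and 1165 without it. The labels do not say what the numbers share. Same-numbered libraries deviated together (correlation 0.213 across genes), which is a hint from the data, not the design. Under the block Aire was at 9.42, Tnfrsf11a at 5.47, Spib at 6.09, Trp63 at 7.97 and Tnfsf11 at -0.86. It also moved list calls. Among AIRE partners 2 fell rather than 0 (Cdk9 adjusted p = 0.037), among Spib-linked B cell genes 3 rose and 4 fell rather than 1 and 2, among p63 targets 1 fell rather than 0 (Sfn, 0.03), and Ccr7 passed (0.0077). Of 400 recomputed counts of list members past the threshold, 75 moved by over 1.5 times, 45 of them with 1 library left out and 11 with the block. Depth limits Foxn1, Fezf2 and the control levels of Trp63, which rest on 0 to 16 reads a library.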

Other observations

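Next to Aire in RefSeq gene order (GRCm38.p6) lie Pfkl, the liver-type phosphofructokinase gene, and Dnmt3l, a partner of the de novo DNA methyltransferases known from germ cells. These neighbours were looked at after the values were seen. Dnmt3l had 0 and 1 reads in control and 409 and 568 reads in caNIK, or 22 and 27.4 CPM in caNIK, and it rose in edgeR's test (adjusted p = 0.00022). The ratio of its summed counts was 1061, with an exact 95% counting interval of 190 to 41952. In caNIK replicate 2 it was the higher, whereas Aire was higher in replicate 1. Pfkl, on the other side of Aire, was at 197 ± 0.311 CPM in control and 187 ± 0.58 CPM in caNIK (log2 fold change -0.08 ± 0.14, edgeR adjusted p = 0.72). Of the neighbours of Tnfrsf11a, Zcchc2 and 2310035C23Rik, neither passed (0.36 and 0.49 on the log2 scale). Beside Spib, Mybpc2, a muscle myosin-binding protein gene, had 0 and 12 reads in control and 80 and 68 in caNIK (edgeR adjusted p = 0.054), and Pold1 did not pass (-0.36 ± 0.17). Whether reads beyond the annotated ends of a member were counted to its neighbour was not tested.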
